A study of Mus musculus with 36 samples.

Results

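The 4 libraries compared here are the single-strand break (SSB) maps of bone marrow and of peripheral blood mononuclear cells (PBMCs), 2 of each, out of 36 samples in the series. They were chosen by tissue and assay from the sample labels, with no measured value used. All 4 came from 24-month-old C57BL/6J mice. The labels state that 2 male mice supplied every tissue, without saying which library number belongs to which mouse. The p-values thus measure only the spread between samples of these mice. In the main tests of genes, ends and windows that spread was shared over the 12 SSB libraries of 6 tissues. The bone marrow was treated with a lysis buffer that removes red cells, the PBMCs were collected from blood on Ficoll, and the DNA of both was isolated with the same kit. The labels name no allele, agent or treatment for any group. The 8 SSB libraries of brain, heart, liver and sperm and the AP site (abasic site) libraries of the same tissues, 2 per tissue, serve as reference. Samples of other ages and RNA libraries were not used here, so the tissue labels could not be checked against marker RNA.

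An SSB is an interruption of a single strand of the double helix. Such breaks arise from oxidation of the sugar backbone, as intermediates of base excision repair and from topoisomerases, which nick DNA to release the torsion that transcription and replication create. Bone marrow holds the blood-forming cells, many of them dividing, from stem cells through the precursors of red cells, platelets and granulocytes, whereas PBMCs are mostly mature lymphocytes and monocytes. Many mouse gene 5' ends lie in CpG islands, stretches rich in the dinucleotide CG that are mostly unmethylated and free of stable nucleosomes in cells that use the gene. Both tissues are mixtures, and fewer cells of a type and fewer breaks per cell cannot be told apart.

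Each SSB library is a list of positions, each the nucleotide and strand of a break, and each position was counted once. The 4 libraries held 458672, 236000, 225011 and 305827 positions in bone marrow 1, bone marrow 2, PBMC 1 and PBMC 2. Between 98.1% and 98.4% of them lay on the 19 autosomes, and all shares below are shares of these autosomal positions. A share or density is given per library, as bone marrow 1 and 2 and then PBMC 1 and 2. The autosomal depths in that order were 451104, 231747, 220728 and 299884 positions, so bare counts of positions must be read against these depths, and whether groups overlap was judged on the counts divided by them. Densities are in LPKM-SSB, lesions per kb of sequence per 1000000 autosomal positions. An exact two-sided permutation test of 2 libraries against 2 has 6 arrangements and cannot give a p below 0.333, so single values are described by whether the groups overlap. Over the 131 single values compared in this way the smallest adjusted p was 0.404. No library repeated another, because at most 0.186% of the nucleotides of the smaller library recurred in any other of the 4, with 431 nucleotides shared between the bone marrow libraries and 279 between the PBMC libraries.

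SSBs were denser at gene 5' ends in bone marrow than in PBMCs. Over 16457 protein-coding genes with a known strand, 79.6% of those on the autosomes, the density of SSBs within 1 kb of the 5' end, divided by the density 5 to 10 kb away, was 2.52 and 2.29 in bone marrow and 1.59 and 1.63 in PBMCs. Both bone marrow libraries were above both PBMC libraries and above all 8 libraries of the other tissues, which ranged from 1.62 to 2.18. The difference between the means, 2.40 ± 0.161 and 1.61 ± 0.0226 (SD, n = 2), was larger than the spread within either tissue (exact permutation test, p = 0.333, the smallest possible). For AP sites the same ratio was 1.61 and 1.60 in bone marrow and 1.5 and 1.55 in PBMCs, so the groups did not overlap there either but lay closer together, and the difference between the assays was not tested for this ratio.

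The excess of bone marrow was concentrated at the start itself. In bins of 200 bp, the highest density was 4.08 and 3.50 times the flanks in bone marrow, and the bin was centred 100 bp upstream of the 5' end. In PBMCs the highest bin reached 1.98 and 1.99 times the flanks and was centred 300 bp downstream. The tissue means of the highest bin were 2.91 in heart, 2.85 in liver, 2.62 in brain and 1.98 in sperm, so that both bone marrow libraries lay above the highest of these 8, 2.98, and the PBMC libraries overlapped with those of sperm.

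**Figure D1:**
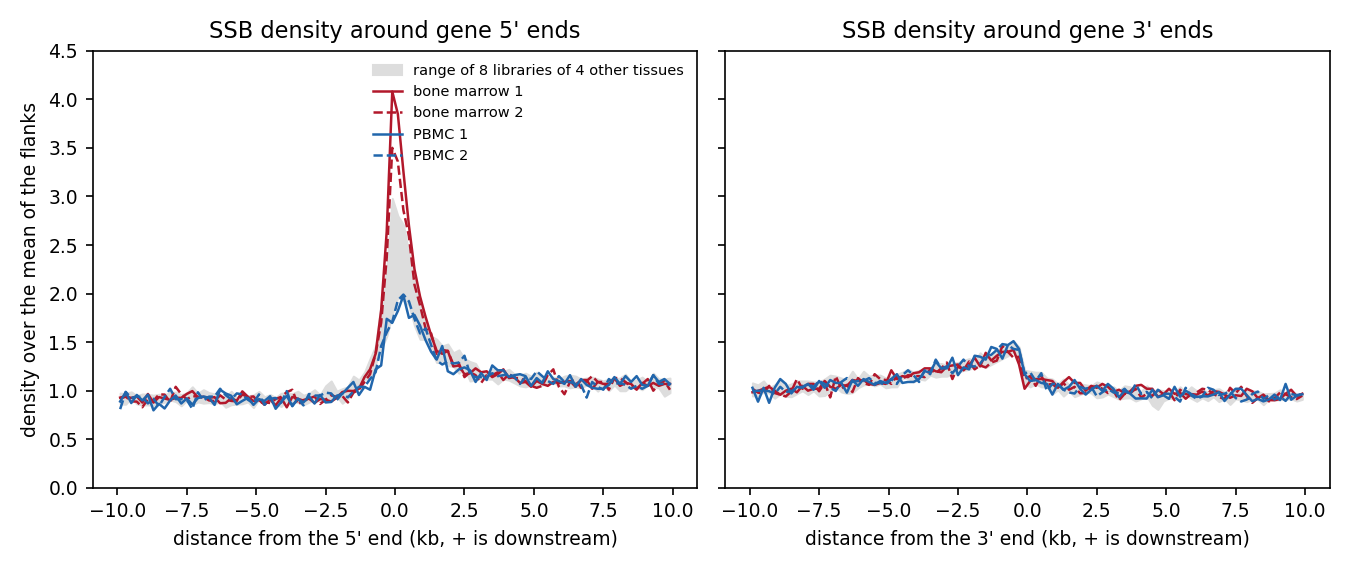
SSB density in 200 bp bins around the 5' ends (left) and 3' ends (right) of protein-coding genes, divided by the mean density of the flanks, against the distance from the end in kb. Lines are single libraries (bone marrow red, PBMCs blue, replicate 2 dashed) and the grey band is the range of the 8 libraries of the other tissues. At the 5' end the bone marrow lines peak at 4.08 and 3.50 and the PBMC lines at 1.98 and 1.99, whereas at the 3' end the 4 lines run together.

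Gene 3' ends showed no such difference. The density within 1 kb of the 3' end over the flanks was 1.17 and 1.17 in bone marrow and 1.16 and 1.17 in PBMCs over all 25748 genes with a known strand, and the groups overlapped. For protein-coding genes alone it was 1.21 and 1.22 against 1.22 and 1.25, which did not overlap, with a difference of -0.0266. The highest 3' bin was 1.42 and 1.46 in bone marrow and 1.51 and 1.48 in PBMCs.

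The excess at 5' ends was larger in promoters with more CG. RefSeq promoter sequences of GRCm38.p6, each from 250 bases before to 50 after a start, were grouped by their number of CG dinucleotides. In the 9700 promoters with 0 to 3 CG, the density was 0.639 and 0.652 LPKM in bone marrow and 0.624 and 0.597 in PBMCs. The ratio of the means was 1.06 in this class, and both tissues lay within the range of the other 8 libraries, 0.572 to 0.668. In the 7886 promoters with 4 to 9 CG, bone marrow had 1.30 and 1.21 and PBMCs 1.06 and 0.940, a ratio of 1.26.

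In the 5302 promoters with 10 to 19 CG, the density was 3.16 and 2.52 in bone marrow and 1.18 and 1.27 in PBMCs, a ratio of 2.32. In the 8475 promoters with 20 or more CG it was 3.85 and 2.98 in bone marrow and 0.985 and 0.985 in PBMCs, a ratio of 3.47. These densities rest on 4418, 1756, 553 and 751 positions. Bone marrow was thus above all other SSB libraries in the CG-rich classes, where the other tissues reached at most 2.05. In the richest class the tissue means were 2.00 in heart, 1.94 in liver, 1.71 in brain and 0.953 in sperm. PBMCs lay beside sperm there, so the ratio also reflects a low value in PBMCs. Within bone marrow the density rose from the poorest class to the richest, whereas in PBMCs it was highest in the class with 10 to 19 CG and lower again above it. For AP sites the richest class had 1.04 and 0.909 in bone marrow and 0.718 and 0.865 in PBMCs, a ratio of 1.23, and the difference between the assays was not tested for promoters. No test over samples can pass at this number of libraries (exact permutation test, p = 0.333 for each class).

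**Figure D2:**
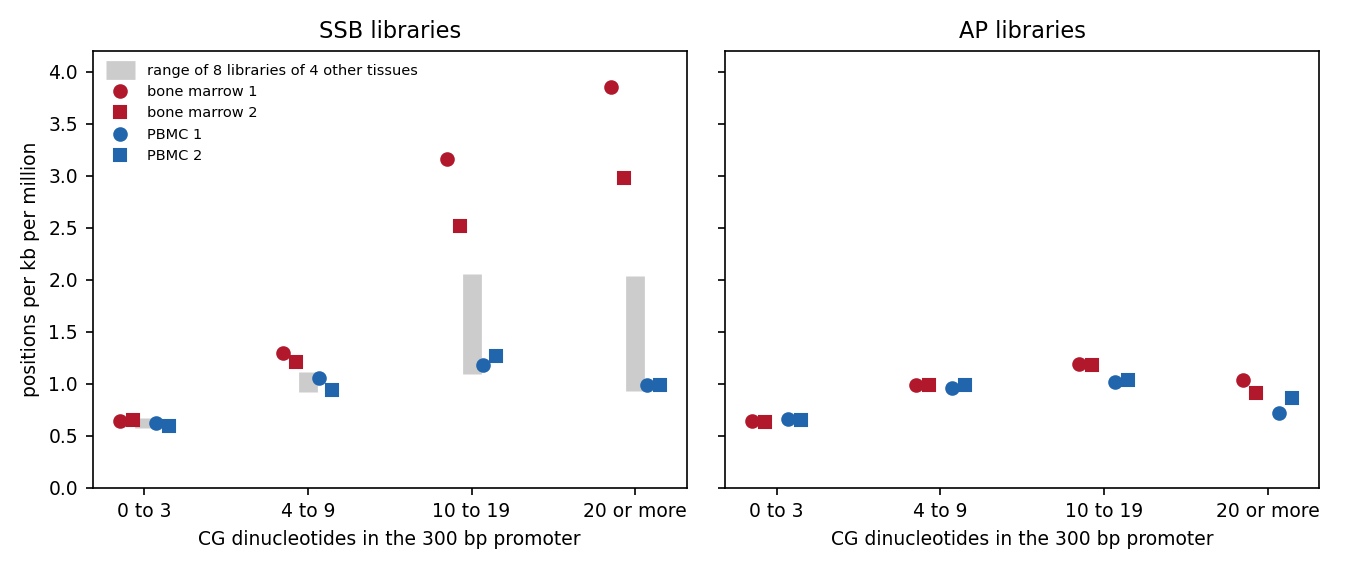
Density in 300 bp promoters by their number of CG dinucleotides, in positions per kb per 1000000 autosomal positions, for the SSB libraries (left) and the AP libraries (right). Points are single libraries (bone marrow red, PBMCs blue) and grey bars the range of the 8 SSB libraries of the other tissues. The bone marrow SSB points reach 3.85 and 2.98 in the class with 20 or more CG, where the PBMC points stay at 0.985, and the AP points of both tissues stay at or below 1.19.

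Among the promoters with 10 or more CG, 5 sequence motifs were counted on both strands, and the motifs may overlap each other. Promoters with CCAAT, the box bound by the factor NF-Y and held by 37.3% of all promoters, had 4.21 and 3.29 LPKM in bone marrow and 1.13 and 1.10 in PBMCs. Those without it had 3.25 and 2.53 against 1.02 and 1.09. With CCGGAAG, the core recognised by ETS factors and held by 9.0% of all promoters, the density was 4.65 and 3.56 in bone marrow and 1.28 and 1.21 in PBMCs, and without it 3.36 and 2.65 against 1.01 and 1.07. With GGGCGG, the box of Sp1-type factors in 35.9% of all promoters, it was 3.71 and 2.92 against 1.01 and 1.06, and without it 3.31 and 2.53 against 1.17 and 1.18. With TATAAA, present in 13.6% of all promoters, it was 3.35 and 2.32 against 1.12 and 0.954, and without it 3.60 and 2.83 against 1.06 and 1.10. The 293 promoters with the palindromic motif of NRF1, held by 0.963% of all promoters, had 3.88 and 3.49 against 1.03 and 1.25, and those without it 3.58 and 2.79 against 1.06 and 1.09. Bone marrow exceeded PBMCs in all 10 of these classes, with ratios between 2.48 and 3.36. The classes split the same promoters, already higher in bone marrow as a set, so they are not separate observations. Motifs were counted as sequence matches, and binding was not measured. The classes also differ in CG number, whose median ran from 17 with TATAAA to 26 with the NRF1 motif, and the part of CG number in these values was not tested.

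No single 5' end was called. Of 22836 gene 5' ends tested with edgeR's quasi-likelihood test, 0 passed an adjusted p of 0.05 (0% called), and 0 passed with DESeq2, which had 9 higher and 6 lower at an unadjusted p under 0.05. In edgeR's test, 653 were higher in bone marrow and 56 lower at that unadjusted p, which is 2.86% and 0.245% of those tested, and the smallest adjusted p was 0.783. The groups did not overlap at 3678 5' ends that were higher in bone marrow (16.1%) and 1240 that were lower (5.43%). The counts at an unadjusted p depended on single libraries and turned in direction without PBMC 2, with 60 higher and 88 lower. They were 176 and 78 without PBMC 1, 291 and 2 without bone marrow 1, and 677 and 25 without bone marrow 2. The median log2 difference over all 5' ends tested was 0.54, against 0.673 under TMM factors and 0.000 under DESeq2. The shifts of single 5' ends had medians of 0.118 and -0.564 in these fits. The median log2 difference was 0.000 without bone marrow 1 and 2.687 without PBMC 2. In the AP libraries 0 of 24112 5' ends passed, with 427 higher and 239 lower at an unadjusted p under 0.05.

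The 5' ends of smallest p in each direction show the scale of the data. The promoters of the first ones with a reference sequence are printed from 5' to 3' in lower case with each CG in capitals, as examples of CG-rich starts in both directions.
Mpdu1 promoter: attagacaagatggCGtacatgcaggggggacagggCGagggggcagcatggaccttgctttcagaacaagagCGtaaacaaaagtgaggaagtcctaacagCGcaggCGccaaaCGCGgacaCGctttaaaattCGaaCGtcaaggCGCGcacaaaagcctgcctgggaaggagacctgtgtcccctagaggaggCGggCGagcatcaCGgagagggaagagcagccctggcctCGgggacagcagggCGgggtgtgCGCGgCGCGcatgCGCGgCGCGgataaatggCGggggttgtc
Map3k3 promoter: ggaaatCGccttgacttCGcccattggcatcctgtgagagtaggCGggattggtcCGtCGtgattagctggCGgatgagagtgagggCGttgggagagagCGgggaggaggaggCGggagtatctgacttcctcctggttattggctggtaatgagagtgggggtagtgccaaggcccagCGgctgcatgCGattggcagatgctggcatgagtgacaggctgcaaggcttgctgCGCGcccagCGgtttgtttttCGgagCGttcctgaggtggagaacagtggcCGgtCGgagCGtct
Cyp1b1 promoter: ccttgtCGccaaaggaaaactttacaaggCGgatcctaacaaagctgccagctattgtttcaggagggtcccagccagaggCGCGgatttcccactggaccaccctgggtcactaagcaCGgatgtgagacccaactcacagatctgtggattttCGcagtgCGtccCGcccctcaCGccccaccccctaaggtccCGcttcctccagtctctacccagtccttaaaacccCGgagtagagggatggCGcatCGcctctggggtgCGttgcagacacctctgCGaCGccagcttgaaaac
Med17 promoter: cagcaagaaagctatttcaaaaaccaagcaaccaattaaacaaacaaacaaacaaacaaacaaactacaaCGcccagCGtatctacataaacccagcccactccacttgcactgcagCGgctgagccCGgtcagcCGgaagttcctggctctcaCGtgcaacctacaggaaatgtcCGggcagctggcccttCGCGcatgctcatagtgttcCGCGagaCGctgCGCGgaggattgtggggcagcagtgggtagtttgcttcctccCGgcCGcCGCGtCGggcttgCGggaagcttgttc
Mpdu1, whose product is needed for the use of dolichol-linked mannose in glycosylation, has 26 CG in its promoter at chr11:69662600-69662899 (minus strand). Within 1 kb of its 5' end lay 7 and 5 positions in bone marrow and 0 and 0 in PBMCs. Map3k3, a kinase of the MAP kinase cascades, has 19 CG at chr11:106084337-106084636 (plus strand) and had 6 and 5 positions against 0 and 0. Cyp1b1, a cytochrome P450 induced by aryl hydrocarbons, has 16 CG at chr17:79715012-79715311 (minus strand) and had 0 and 0 positions in bone marrow and 2 and 5 in PBMCs. Med17, a subunit of the Mediator complex, has 20 CG at chr9:15279857-15280156 (minus strand) and had 0 and 0 against 3 and 3. In each case a group was listed at 0 positions within 1 kb, while the other held at most 7 in a library. None passed the test (adjusted p = 0.783 with edgeR's quasi-likelihood test). Within the printed bases themselves, Mpdu1 held 1 and 3 positions in bone marrow and Med17 1 and 2 in PBMCs, each against 0 and 0. There Map3k3 held 2 and 0 in bone marrow against 0 and 0, and Cyp1b1 0 and 0 against 0 and 2, so the groups overlapped.

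The remaining 5' ends named by the same rule were alike in size. Abtb1 had 7 and 4 positions in bone marrow, Daxx, a chaperone of histone H3.3, had 8 and 2, Srd5a1, a steroid 5-alpha-reductase, had 8 and 2, and Atf2, a transcription factor, had 10 and 0, all against 0 and 0 in PBMCs. In the other direction Lhfpl3 and Smpd4 had 1 and 5 positions in PBMCs, Wdr86 had 3 and 2, and Ifnl2, an interferon lambda, had 2 and 3, all against 0 and 0 in bone marrow. The 3' end of Podxl2, which lies beside the 5' end of Abtb1, had the same 7 and 4 positions and the smallest p among protein-coding 3' ends (adjusted p = 0.807 with edgeR's quasi-likelihood test).

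Over whole genes, a larger share of the SSBs of bone marrow fell within genes. All 47042 autosomal RefSeq genes together held 63.7% and 62.8% of the positions in bone marrow and 61.5% and 61.3% in PBMCs, and the other 8 libraries held 60.0% to 61.7%. The groups did not overlap, and the difference of 1.82 percentage points was larger than the SDs of 0.636 and 0.187 (n = 2, exact permutation test, p = 0.333). AP sites had 62.6% and 62.1% against 61.4% and 61.8%.

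The direction depended on gene length. Protein-coding genes under 10 kb held 3.44% and 3.11% of the positions in bone marrow and 2.59% and 2.43% in PBMCs, a ratio of 1.30. Genes of 10 to 50 kb held 15.2% and 14.3% against 12.9% and 12.5%, a ratio of 1.16, and genes of 50 to 100 kb 10.0% and 9.71% against 9.37% and 9.33%, a ratio of 1.05. From 100 to 500 kb the order turned, with 20.8% and 21.1% in bone marrow and 21.3% and 21.5% in PBMCs. The 216 protein-coding genes over 500 kb held 6.28% and 6.59% in bone marrow and 7.14% and 7.34% in PBMCs, a ratio of 0.889. The groups did not overlap in any of these 5 length classes. Of AP sites, the genes over 500 kb held 7.04% and 7.32% in bone marrow and 7.62% and 7.56% in PBMCs.

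Single genes gave few calls. Of 37166 genes tested with edgeR's quasi-likelihood test, 1 was called, AY036118, which was higher in bone marrow (0.00269% called), and 0 were called lower. With DESeq2, 0 genes were called, and 239 were higher and 255 lower at an unadjusted p under 0.05. At an unadjusted p under 0.05, 1190 genes (3.20%) were higher and 603 (1.62%) lower in bone marrow. Among the 216 protein-coding genes over 500 kb tested, 0 were called, 187 had a negative log2 difference and 29 a positive one, and 48 were lower and 0 higher at an unadjusted p under 0.05. Their median log2 difference was -0.18, against 0.13 over all 19708 protein-coding genes tested and 0.33 over the 6502 under 10 kb. In the AP libraries 0 of 39732 genes were called, with 813 higher and 570 lower at an unadjusted p under 0.05.

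AY036118 is a noncoding RNA gene on the minus strand of chromosome 17 (GRCm38, 39848112 to 39898385), in a region known for sequence like that of the ribosomal RNA repeats. It held 69 and 33 positions in bone marrow and 15 and 13 in PBMCs, which is 3.04 and 2.83 LPKM against 1.35 and 0.862. Both bone marrow libraries were well above both PBMC libraries, with a log2 difference of 1.47 ± 0.28 (SE, adjusted p = 0.00949 with edgeR's quasi-likelihood test). Its call was lost without bone marrow 1 and without PBMC 2, where the adjusted p was 0.607 and 0.908, and over all alternatives it ran from 4.97e-04 to 1. For AP sites its log2 difference was 0.33. Reads of near-identical repeats elsewhere could be placed at this gene, how they were placed is not given in the sources used here, and their part in the value was not tested. Its 3' end, with 66 and 29 positions against 14 and 11, was also the only called feature among 20622 gene 3' ends (0.00485% called), of which 144 (0.698%) were higher and 55 (0.267%) lower at an unadjusted p under 0.05. That split turned without PBMC 1 (28 higher and 74 lower) and without PBMC 2 (7 and 77). The 3' end call was lost in 6 of 13 alternatives, namely the 4 libraries alone, DESeq2, TMM factors, equal depth, without bone marrow 1 and without PBMC 2, with adjusted p-values from 1.94e-04 to 0.928 over all 13 (edgeR's quasi-likelihood test or DESeq2).

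The protein-coding genes of smallest p that were higher in bone marrow spanned 7606 to 99610 bp. Mink1, a kinase upstream of JNK signalling, had 31 and 17 positions in bone marrow and 2 and 7 in PBMCs, or 1.30 and 1.39 LPKM against 0.171 and 0.441. Snx30, a sorting nexin of endosomes, had 35 and 23 positions against 4 and 10, or 0.779 and 0.996 LPKM against 0.182 and 0.335. Rgl2, an exchange factor for Ral GTPases, had 19 and 10 positions against 2 and 0. Tgif2, a homeobox repressor of TGF-beta targets, had 15 and 3, and Ccdc142 had 13 and 5, both against 0 and 0, and the predicted gene Gm46963 had 25 and 10 against 4 and 1. The groups did not overlap for any of these 6 genes, which were picked by p. Of all genes tested, 15.6% were higher in bone marrow without overlap. The adjusted p-values of the 6 genes ran from 0.0817 to 0.163 with edgeR's quasi-likelihood test, so none was called.

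The 6 protein-coding genes of smallest p in the other direction spanned 71581 to 2270506 bp. Ptprd, a receptor tyrosine phosphatase of synapses and the longest of them, had 198 and 118 positions in bone marrow and 150 and 206 in PBMCs, which is 0.193 and 0.224 LPKM against 0.299 and 0.303. Its log2 difference was -0.56 ± 0.12 (SE, adjusted p = 0.0817 with edgeR's quasi-likelihood test), and both bone marrow libraries lay below both PBMC libraries. Ptprd was called in 4 of 12 alternatives, with an adjusted p of 0.0453 with the replicate block, 0.0147 with the 4 libraries alone, 0.00923 without a filter and 0.00539 with at least 100 positions, and its adjusted p reached 1 at most (edgeR's quasi-likelihood test or DESeq2). Phf3, a regulator of RNA polymerase II elongation, was the shortest, with 5 and 3 positions against 15 and 15, or 0.155 and 0.181 LPKM against 0.949 and 0.699. Dpp10, an auxiliary subunit of potassium channels, had 0.170 and 0.208 LPKM against 0.308 and 0.258. Hs3st5, which modifies heparan sulfate, Plcl1 and Tgfa, a ligand of the EGF receptor, followed, each without overlap. Their adjusted p-values were 0.268 and 0.279 with edgeR's quasi-likelihood test. Of all genes tested, 12.9% were lower in bone marrow without overlap.

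Among the other very long genes named from earlier results, the groups did not separate in every case. Ctnna2, an alpha-catenin of neurons, had 0.268 and 0.267 LPKM in bone marrow and 0.367 and 0.364 in PBMCs, without overlap (log2 difference -0.45 ± 0.15, adjusted p = 0.722 with edgeR's quasi-likelihood test). Lrp1b, a large lipoprotein receptor, had 0.142 and 0.195 against 0.194 and 0.181, Lsamp, an adhesion protein of limbic neurons, 0.294 and 0.348 against 0.346 and 0.351, and Macrod2, which removes ADP-ribose, 0.279 and 0.365 against 0.311 and 0.361. For these 3 genes the groups overlapped, and each had an adjusted p of 0.894. Of the 30 genes in a list of long neuronal and adhesion genes, 27 had a negative log2 difference, with a median of -0.23. At an unadjusted p under 0.05, 12 were lower. These genes have a median length of 1217 kb. Of the 216 protein-coding genes over 500 kb, 187 were negative and 48 lower at that p. The part of gene length was not tested. As a sum, the list held 1.25% and 1.34% of the positions in bone marrow and 1.48% and 1.51% in PBMCs. Of AP sites it held 1.41% and 1.47% against 1.58% and 1.56%.

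The genes of the blood lineages were counted in lists, although an SSB position does not measure expression. None of the 11 lists had a called gene, whether over whole genes or at 5' ends. Of all features tested, 1 of 37166 genes (0.00269%) and 0 of 22836 5' ends were called, so this does not set the lists apart. Neutrophil lineage genes, such as those of granule proteins and their transcription factors, held 0.0270% and 0.0280% of the positions in bone marrow and 0.0163% and 0.0173% in PBMCs, a ratio of 1.64 on 122, 65, 36 and 52 positions. Of its 24 genes tested, 21 had a positive log2 difference (87.5%), with a median of 0.79. Over all 19708 protein-coding genes tested, 57.0% were positive, with a median of 0.13. At an unadjusted p under 0.05, 2 of the 24 were higher and 0 lower, against 920 and 360 of all protein-coding genes. The bone marrow share was above the range of the other 8 libraries, 0.0144% to 0.0200%. These genes are short, with a median length of 5.56 kb, and short genes as a class were higher in bone marrow as well. The part of gene length in the ratio was not tested. Of the members with most positions, Hdc, which makes histamine, had 0.803 and 0.710 LPKM against 0.597 and 0.329, whereas Padi4, which citrullinates histones, had 0.772 and 1.80 against 0.631 and 1.39 and overlapped.

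Erythroid genes held 0.0765% and 0.0837% in bone marrow and 0.0612% and 0.0614% in PBMCs, a ratio of 1.31, with 14 of 20 genes tested positive (70.0%). Over all protein-coding genes tested, 57.0% were positive, and of those of 10 to 50 kb 61.4%. Sptb, which encodes the beta chain of the red cell spectrin, had 1.04 and 1.33 LPKM against 1.01 and 0.538, and Ank1, the ankyrin that anchors it, had 0.946 and 0.884 against 0.619 and 0.987. Sptb did not overlap between the tissues and Ank1 did. Megakaryocyte and platelet genes had a ratio of 1.32 with 14 of 16 positive, at a median length of 9.15 kb, where protein-coding genes under 10 kb as a class had a ratio of 1.30. Within them Fli1, a transcription factor of the lineage, had 0.933 and 1.14 LPKM against 0.710 and 0.660, whereas Vwf, the von Willebrand factor gene, overlapped with 1.01 and 0.678 against 0.610 and 0.873.

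DNA replication and cell cycle genes held 0.0419% and 0.0375% in bone marrow and 0.0294% and 0.0337% in PBMCs, a ratio of 1.26 with 21 of 28 positive. Pold1, the catalytic subunit of polymerase delta, had 0.965 and 2.15 LPKM against 0.282 and 0.415. This rests on 7 and 8 positions against 1 and 2 (adjusted p = 0.894 with edgeR's quasi-likelihood test). Pole, of polymerase epsilon, had 0.780 and 0.759 against 0.620 and 1.04 and overlapped. Cdc45 overlapped as well, with 0.703 and 0.411 against 0.719 and 0.635. Genes of single-strand break and base excision repair had a ratio of 1.14 with 19 of 28 positive (67.9%). Parg, which removes poly(ADP-ribose), had 0.412 and 0.446 LPKM against 0.234 and 0.276, and Top1, the topoisomerase that nicks single strands, had 0.288 and 0.337 against 0.707 and 0.347.

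The lists of mature lymphocytes gave other values. T cell genes held 0.151% and 0.158% of the positions in bone marrow and 0.164% and 0.154% in PBMCs, and B cell genes 0.182% and 0.188% against 0.185% and 0.178%, so that the tissues overlapped in each. NK cell genes held 0.0104% and 0.0108% against 0.0136% and 0.0113%, on 25 to 47 positions a library. Of 30 T cell genes tested, 11 were positive and 19 negative (36.7% positive), and of 25 B cell genes 11 and 14 (44.0% positive). Over all protein-coding genes tested, 57.0% were positive. At an unadjusted p under 0.05, 2 genes were higher and 0 lower in the T cell list and in the B cell list, as in the neutrophil list. Foxp1 and Ebf1, transcription factors of B cell development, had 0.668 and 0.708 LPKM against 0.675 and 0.748, and 0.620 and 0.653 against 0.674 and 0.710. Ebf1 did not overlap and Foxp1 did. Aff3, of the same list, overlapped with 0.673 and 0.731 against 0.717 and 0.675. Stem and progenitor cell genes had a ratio of 1.09, with Etv6 at 0.945 and 0.810 LPKM against 0.715 and 0.683 and Mecom at 0.453 and 0.502 against 0.608 and 0.573. Monocyte and macrophage genes had a ratio of 1.14 on their summed share.

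At 5' ends the counts of each list were small. All protein-coding genes had 1.52 and 1.30 LPKM within 1 kb of the 5' end in bone marrow and 0.821 and 0.817 in PBMCs, a ratio of 1.72. Neutrophil lineage genes had 1.56 and 1.08 against 0.412 and 0.682, a ratio of 2.41 on 31, 11, 4 and 9 positions. Replication and cell cycle genes had 2.47 and 1.27 against 0.823 and 0.833, a ratio of 2.26. Repair genes had 1.98 and 2.07 against 1.13 and 0.764, a ratio of 2.14. Long neuronal and adhesion genes had a ratio of 1.88, stem and progenitor cell genes 1.78 and erythroid genes 1.66. T cell genes overlapped, with 1.28 and 0.681 against 1.67 and 0.702 on 6 to 22 positions a library. The monocyte, B cell, megakaryocyte and NK cell lists overlapped as well, with ratios of 1.28, 1.16, 1.03 and 0.539. Cytosolic ribosomal protein genes had 2.68 and 2.12 against 1.32 and 1.03. Olfactory receptor genes, best known from the sensory neurons of the nose, had 0.530 and 0.543 against 0.591 and 0.548, so the ratio of 0.942 was below 1 in this family.

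At the antigen receptor loci, which lymphocytes cut and rejoin during their development, the shares mostly overlapped. The immunoglobulin kappa locus held 0.0470% and 0.0440% of the positions in bone marrow and 0.0607% and 0.0544% in PBMCs, without overlap, within the range of 0.0452% to 0.0663% of the other tissues for all but bone marrow 2. The T cell receptor beta locus held 0.0186% and 0.0198% against 0.0177% and 0.0163%. The immunoglobulin heavy and lambda loci and the T cell receptor alpha and gamma loci overlapped between the tissues.

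Windows of fixed length were tested next. The 23971 windows of 100 kb gave 6 calls higher in bone marrow (0.0250% called) and 0 lower with edgeR's quasi-likelihood test, and 977 higher and 994 lower at an unadjusted p under 0.05. With DESeq2 there was 1 call (0.00417%). The window of smallest p, chr17:39800001-39900000 (GRCm38), holds AY036118 and had 484 and 277 positions in bone marrow and 109 and 118 in PBMCs (log2 difference 1.36 ± 0.12, adjusted p = 2.93e-27), with a log2 difference of 0.62 for AP sites.

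Of the other called windows, 4 are described here, and all 4 hold protein-coding genes. The window chr8:70700001-70800000, with Jund, a subunit of the AP-1 transcription factor, Rab3a, Pik3r2 and 6 further genes, had 88 and 46 positions against 17 and 24. The window chr15:76300001-76400000, with Cyc1, which encodes cytochrome c1, Exosc4, Sharpin, Maf1 and 6 further genes, had 73 and 33 against 14 and 16. The window chr5:140700001-140800000, with Gna12, Brat1, Iqce and Amz1, had 65 and 25 against 7 and 16. The window chr4:135800001-135900000, with Srsf10, a splicing factor, Cnr2, the cannabinoid receptor of immune cells, Myom3 and Pnrc2, had 52 and 18 against 6 and 12. Their log2 differences ran from 1.31 to 1.57 and their adjusted p-values from 0.00127 to 0.0344 with edgeR's quasi-likelihood test. The groups did not overlap in any, as in 16.0% of all 100 kb windows tested, which were higher in bone marrow without overlap. These 4 calls were lost without bone marrow 1, without PBMC 2 and with DESeq2, which called only the chromosome 17 window. Of 12 alternatives, the call was lost in 3 for the chromosome 8 window and in 4 for that on chromosome 15. It was lost in 5 for the chromosome 5 window and in 6 for that on chromosome 4.

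**Figure D3:**
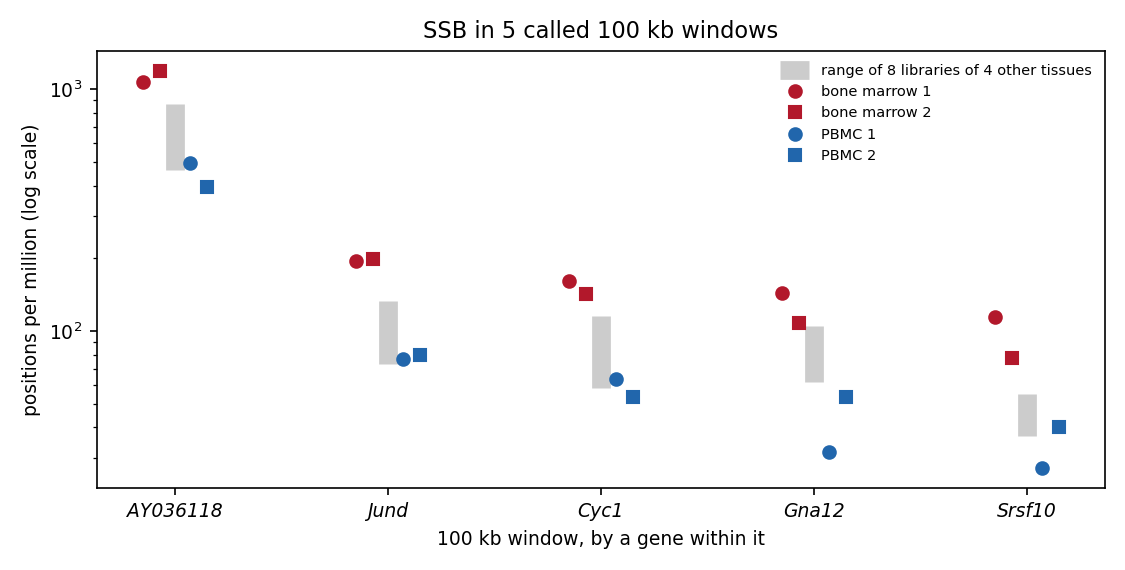
SSB positions per 1000000 autosomal positions (log scale) in 5 of the 6 called 100 kb windows, each named by a gene within it. Points are single libraries and grey bars the range of the 8 libraries of the other tissues. In each window both bone marrow points lie above both PBMC points.

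The windows of smallest p that were lower in bone marrow held few genes and were not called. The window chr4:114100001-114200000, with Skint11, had 0 and 0 positions in bone marrow and 4 and 7 in PBMCs. The window chr1:30800001-30900000, with Phf3, had 10 and 3 against 17 and 17, and chr3:141700001-141800000, with Unc5c, a netrin receptor, 11 and 2 against 13 and 21. The window chr10:31300001-31400000, with Hddc2 and Tpd52l1, had 6 and 5 against 11 and 19. Those at chr19:27500001-27600000 and chr16:71500001-71600000, with 9 and 9 positions against 15 and 26 and with 2 and 0 against 6 and 10, held no protein-coding gene. Their adjusted p-values were 0.0959 to 0.116.

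Wider windows, with more positions each, gave more calls. Of 2413 windows of 1 Mb, 224 were called (9.28%), 144 higher in bone marrow (5.97%) and 80 lower (3.32%). Of the calls, 64.3% were higher in bone marrow as fitted and 86.3% with TMM factors (202 higher and 32 lower), which change the scaling alone. With DESeq2, which also changes the dispersion model and the test, 115 were higher and 0 lower. The number also depended on the library, with 12 calls without bone marrow 1, 275 without bone marrow 2, 144 without PBMC 1 and 44 without PBMC 2. The 12 calls without bone marrow 1 were all higher in bone marrow and were all among the 224. In the AP libraries 0 of 2413 windows were called, with 62 higher and 63 lower at an unadjusted p under 0.05. A test of the difference between SSBs and AP sites called 0 windows as well (smallest adjusted p = 0.0761, with 78 and 101 windows at an unadjusted p under 0.05), so the tissue difference was not shown to be larger for SSBs than for AP sites in any window.

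The called windows differed in gene content. Those higher in bone marrow held a median of 24.5 protein-coding genes and those lower a median of 2.00, against 6.00 over all windows tested. Of the 209 windows with 0 protein-coding genes, 0 were called higher and 12 lower, and their median log2 difference was -0.28. Of the 797 with 1 to 4 genes, 0 were higher and 46 lower, and of the 614 with 5 to 9 genes 5 and 15. Of the 507 with 10 to 19 genes, 41 were higher and 5 lower, of the 169 with 20 to 29 genes 41 and 0, and of the 117 with 30 or more 57 and 2. The share called higher ran from 0% to 48.7% with the number of genes, and the median log2 difference from -0.28 to 0.31. For AP sites the median log2 difference ran in the same order over a smaller range, from -0.11 to 0.11.

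**Figure D4:**
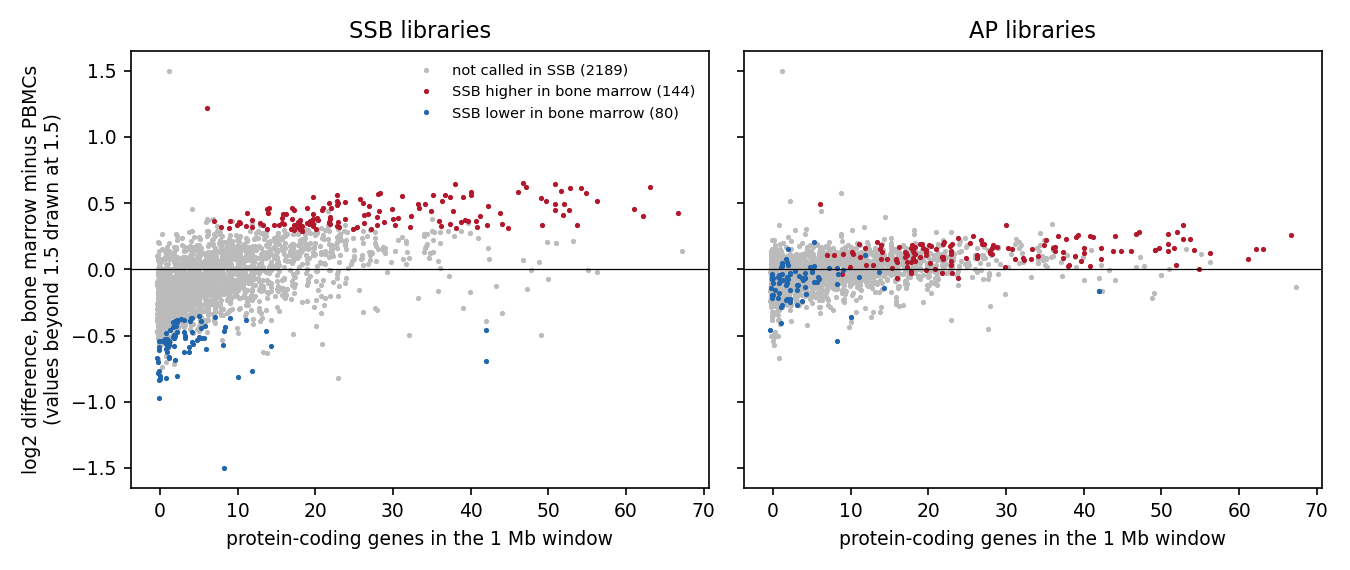
Log2 difference between bone marrow and PBMCs in each of 2413 windows of 1 Mb against the number of protein-coding genes in the window, for SSBs (left) and AP sites (right), with values beyond 1.5 drawn at 1.5. Colours mark the 144 windows called higher and the 80 called lower in bone marrow for SSBs, and the points are spread sideways at random for visibility. The SSB differences rise with the number of genes, and the AP differences rise less.

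Across the 2413 windows the Spearman correlation of the SSB difference with the number of genes was 0.606, and that of the AP difference 0.484. These are descriptions across windows of 4 libraries of each assay. The windows share those libraries and are not independent replicates. With the positions within 2 kb of a known 5' end removed, a setting chosen after the values were seen, the correlation was 0.556, and 119 windows were called, 89 higher and 30 lower. The median log2 difference then ran from -0.24 in windows without genes to 0.27 in those with 30 or more. The positions removed were 10.4% and 9.43% of the autosomal positions in bone marrow and 7.49% and 7.40% in PBMCs. Those near 5' ends of genes without a known strand remained.

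Windows named here were chosen after their values were seen. Beside the window with AY036118, the smallest p-values among the higher windows were at chr11:120000001-121000000, with 47 protein-coding genes and 574 and 253 positions in bone marrow against 179 and 220 in PBMCs (log2 difference 0.65 ± 0.10, adjusted p = 2.68e-07 with edgeR's quasi-likelihood test). The window chr10:80000001-81000000, with 54 genes, had 647 and 289 positions against 206 and 258. Among the lower windows, chr1:107000001-108000000, which holds 10 genes of the Serpinb cluster of protease inhibitors, had 77 and 38 positions against 55 and 99 (log2 difference -0.81 ± 0.18, adjusted p = 0.000827 with edgeR's quasi-likelihood test). The window chr7:9000001-10000000, with 8 genes in a cluster of vomeronasal receptors, had 6 and 4 against 12 and 19. In each of these windows the groups did not overlap as shares. Of all 1 Mb windows tested, 17.8% were higher and 31.8% lower in bone marrow without overlap.

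The shares of whole classes of 100 kb windows rest on far more positions. The 3598 windows without any RefSeq gene held 7.17% and 7.88% of the positions in bone marrow and 8.66% and 8.85% in PBMCs, and the other tissues held 8.51% to 9.79%. Windows with 1 protein-coding gene held 36.4% and 37.2% against 38.3% and 38.7%. Windows with 2 to 3 genes held 27.8% and 26.7% against 25.7% and 25.3%, those with 4 to 6 genes 11.3% and 10.4% against 9.19% and 8.84%, and the 300 windows with 7 or more genes 3.0% and 2.77% against 2.12% and 2.02%. The ratio of the tissue means rose from 0.891 without a protein-coding gene to 1.39 with 7 or more. Without the positions near known 5' ends the ratio ran from 0.913 to 1.32. Positions near 5' ends of genes without a known strand, such as those on chromosome 18, were not removed. The groups did not overlap in any of these classes.

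The windows were also ranked by their SSB density in the 8 libraries of the other tissues, which take no part in the comparison. The decile of lowest density held 2.28% and 2.56% of the positions in bone marrow and 2.79% and 2.91% in PBMCs, a ratio of 0.848. The decile of highest density held 22.7% and 21.6% against 19.5% and 18.7%, a ratio of 1.16. The ratio rose with each decile, from 0.848 to 1.16, and the groups overlapped only in the eighth. Along the autosomes, the last of 10 equal parts counted from the centromere held 13.5% and 13.3% in bone marrow and 12.8% and 12.6% in PBMCs. Chromosome 11 held 6.71% and 6.46% against 6.18% and 6.06%, a ratio of 1.08, and chromosome 3 held 5.16% and 5.34% against 5.56% and 5.60%, a ratio of 0.941, the extremes among the 19 autosomes.

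The strand of the breaks differed as well. Inside 13374 protein-coding genes, with 2 kb at either end left out, 52.3% and 53.4% of the SSB positions of bone marrow lay on the coding strand, against 55.7% and 55.3% in PBMCs. Both tissues were above 50%, and the groups did not overlap. The tissue means were 55.4% in sperm, 54.2% in liver, 53.8% in heart and 53.1% in brain, against 52.9% in bone marrow and 55.5% in PBMCs. Bone marrow had the lowest mean of the 6 tissues, although bone marrow 2 lay above the lowest brain library, and PBMCs lay beside sperm. For AP sites the shares were 50.2% and 50.5% in bone marrow and 50.7% and 50.5% in PBMCs, which overlapped. The order of bone marrow below PBMCs held in all 5 gene length classes, for example with 52.4% and 53.8% against 57.1% and 55.9% in genes of 50 to 100 kb and 52.2% and 51.9% against 54.9% and 53.6% in genes over 500 kb (exact permutation test, p = 0.333 for each).

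**Figure D5:**
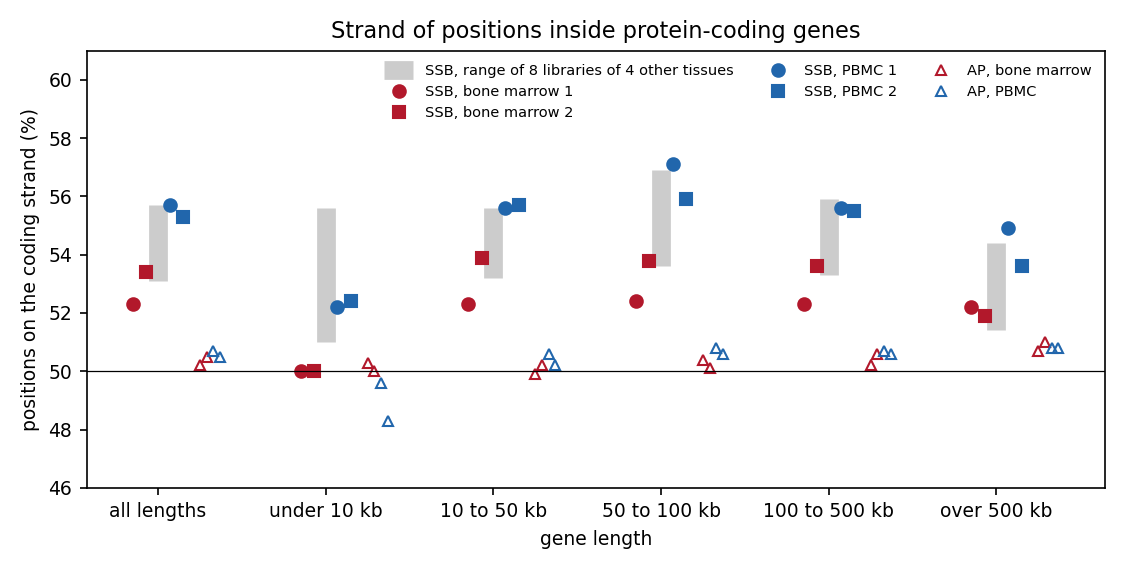
Percentage of positions on the coding strand inside protein-coding genes, in all genes and by gene length. Filled points are SSB libraries (bone marrow red, PBMCs blue), open triangles AP libraries, grey bars the range of the 8 SSB libraries of the other tissues, and the axis is cut at 46% and 61%. Over all lengths the bone marrow SSB points lie at 52.3% and 53.4% and the PBMC points at 55.7% and 55.3%.

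Beside the 5' ends the strand shares were separate upstream and overlapped from the promoter on. From 1 kb upstream to the promoter, 44.7% and 46.4% of the positions of bone marrow lay on the coding strand, against 49.0% and 48.4% in PBMCs. In the promoter itself the shares were 49.1% and 48.0% against 47.2% and 50.3%, and from 51 to 1000 bp downstream 55.1% and 55.9% against 57.0% and 54.6%, with overlap in both.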

How the data were processed

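SSBs and AP sites were mapped at nucleotide resolution with SSiNGLe and SSiNGLe-AP in 12 libraries each, from 6 tissues with 2 libraries per tissue. The authors deposited, per library, a list of positions with strand and a raw read count at each position, not normalized or pooled. The aligner and filters are not given in the sources used here. The submitters' processing notes name mm10 and GRCm38. RefSeq genes of GRCm38.p6 were used, as whole spans, since exons were not used here. The strand came from the RefSeq promoter table, which covers 16457 of 20665 autosomal protein-coding genes and none on chromosome 18. Overlapping genes and promoters each count a shared position.

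Each position was counted once per feature on either strand. Features with a position in at least 20% of the 12 SSB libraries were tested with edgeR 4.0.16 (R 4.3.3, quasi-likelihood, 1 mean per tissue, autosomal positions as library size, Benjamini-Hochberg, threshold 0.05), which shares the spread over the 6 tissues. AP libraries were fitted alike. DESeq2 1.42.0, TMM factors, the 4 libraries alone, other filters, summed counts, equal depth, a replicate block and leaving out each library were alternatives. The autosomal depth was 220728 to 451104 positions, where a tested gene held in median 1 to 3 positions and a 100 kb window 8 to 16, so differences in single short genes were mostly not detectable. The fits were tested on simulated data. Genes, ends and 100 kb windows were named by smallest p (6 in each direction), list members by most positions, and a few from earlier results. Members and lists were chosen with earlier results of these data known. Python 3.11.15 was used for counting. Of the features these rules name, 1 window of 100 kb is not reported here.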

Additional observations from a re-analysis of the deposited data

How the results depend on the processing

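Each alternative changed 1 choice of the fit of the 12 SSB libraries, except that DESeq2 changed the scaling, the dispersion model and the test together. Of the genes called (1), 2 were called with the 4 libraries alone, without a filter or with the replicate block, 6 with at least 100 positions, and 0 with DESeq2 or at equal depth. Of the 3' ends (1), 0 were called with the 4 libraries alone, DESeq2, TMM factors or equal depth. Of the 100 kb windows (6), DESeq2 called 1, TMM factors 10 and equal depth 2. Of the 1 Mb windows (224), 143 were called with the 4 libraries alone, 115 with DESeq2, 91 at equal depth and 119 without positions near known 5' ends. The bone marrow minus PBMC difference at 5' ends was 0.600 over all genes, 0.794 over protein-coding genes and 0.931 within 500 bp. At 3' ends it was 0.00384, with -0.0266 and -0.0381 under the same changes. In windows without a gene it was -1.22 percentage points, and -2.72 where only protein-coding genes were counted. The cause of these changes was not tested.

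Leaving out each library in turn gave 0 to 1 genes, 0 to 0 5' ends, 0 to 1 3' ends, 1 to 10 windows of 100 kb and 12 to 275 of 1 Mb. The differences then ran from 1.37 to 2.27 percentage points within genes, from -0.980 to -0.664 in genes over 500 kb, from 0.523 to 0.677 at 5' ends, from -0.00371 to 0.0114 at 3' ends and from -1.58 to -0.866 in windows without a gene. The log2 differences of Lrp1b (-0.39 to 0.06) and Macrod2 (-0.28 to 0.11) turned positive without bone marrow 1. The shifts of the log2 differences of single 3' ends had a median of 0.320 under TMM factors. Those of single 5' ends had a median of -0.564 under DESeq2. The median log2 difference itself went from 0.000 to 0.026 at 3' ends and from 0.541 to 0.000 at 5' ends. Where a library is left out, the lone sample of its tissue is assumed to vary like the other groups.

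Whether the library numbers pair the mice is not known, so the fit without the block was kept. Same-numbered bone marrow and PBMC libraries deviated together with a correlation of 0.0480. With 2 libraries per tissue and few positions in most genes, this value cannot show whether they are paired. With the replicate block, 2 genes (AY036118 and Ptprd), 0 5' ends, 1 3' end, 6 windows of 100 kb and 214 of 1 Mb were called. With at least 100 positions, only 2 gene 5' ends and 3 gene 3' ends were left, of which 0 and 2 were called, too few features to share an estimate of the spread, so these fits were set aside. Depth limits the single genes and ends.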
